A study of Rattus norvegicus with 15 samples.

Results

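The genes described here are 7 genes of astrocytes, chosen by their Ensembl rat identifiers for what they encode and found in all 15 count tables. The choice was made with earlier results of these data known. The genes are 7 of 34202 rows and 7 of the 16522 genes that passed the filter on low counts. Gfap (ENSRNOG00000002919) and Vim (ENSRNOG00000018087) encode intermediate filament proteins, and S100b (ENSRNOG00000001295) a calcium-binding protein. Slc1a2 (ENSRNOG00000005479) and Slc1a3 (ENSRNOG00000016163) encode the glutamate transporters GLT-1 and GLAST. Gja1 (ENSRNOG00000000805) encodes the gap junction protein connexin 43, and Aqp4 (ENSRNOG00000016043) the water channel aquaporin 4.

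RNA was sequenced from the L4-L6 spinal cord on the operated side of adult male Sprague-Dawley rats of 180 to 200 g, 3 libraries in each of 5 groups. Sham rats had the left sciatic nerve exposed but not ligated. In the other 4 groups the nerve carried 4 loose ligatures, the chronic constriction injury (CCI) that is used as a model of neuropathic pain. CCI rats are listed without a drug. CCI+YZP rats received Yuan-Hu Zhi Tong Prescription at 10.8 g crude drug per kg, and CCI+YH and CCI+BZ rats received the preparations labelled YH at 7.2 and BZ at 3.6 g crude drug per kg. Dosing ran for 5 days from postoperative day 6, and the cords were taken on day 10. A ligated group held 7 rats and gave 3 libraries, which are treated as coming from different rats. The tissue is cord of several segments, its cells not separated, in which fewer astrocytes and less RNA per astrocyte cannot be told apart.

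Astrocytes carry out most of the uptake of synaptic glutamate, buffer potassium and water, and are joined to each other by gap junctions. After nerve injury, astrocytes of the dorsal horn are known to become reactive, a state in which filament proteins, GFAP above all, accumulate. Loss of glutamate transporters and a changed use of connexin 43 are also described for painful states. The comparisons below ask whether the messenger RNA of these genes differed after ligation and with each drug.

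Total counts per library ranged from 15093246 to 22757104, and each of the 7 genes had at least 1036 counts in every library. Counting error (the square root of the mean count over that count) was 0.359% to 2.78%, while the SD between rats of a group was 2.03% to 23.8% of the mean. The spread between rats exceeded the counting error for every gene and group. Levels are CPM, the count divided by the library's total after scaling by the trimmed mean of M-values (TMM). CPM is not corrected for gene length, so levels of different genes are not compared. The first principal component of all other genes covered 20.8% of the variance between libraries. Scores on it ran for sham from -28.7 to -22.7 and for CCI from 9.16 to 31.1, and each drug group had libraries on both sides of 0. The files give identifiers without symbols, and further lists of astrocyte, reactive and other cell-type genes were not tested here.

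None of the 7 genes was called changed in any of 9 comparisons, at a Benjamini-Hochberg adjusted p under 0.05 over all genes in edgeR. For a difference anywhere among the 5 groups, 0 of 7 were called (adjusted p 0.563 to 0.982) against 0.0908% of all genes, and 0 of 7 had an unadjusted p under 0.05 against 10.5%. DESeq2 and limma voom also called 0 of 7 in that test, against 2.02% and 0.0545% of all genes. At an adjusted p under 0.1 edgeR called 0 of 7 as well, in each of the 9 comparisons. The share of all genes called at that level was 0.127% for a difference anywhere and 0.327% in CCI against sham. It was 0.0121%, 0% and 0% in CCI+YZP, CCI+YH and CCI+BZ against CCI. Against sham it was 0.49%, 0.194% and 0% in the same order, and 1.11% for all 4 ligated groups. The highest group mean was 1.05 times the lowest for Gja1, the narrowest span, and 1.32 times the lowest for S100b, the widest. S100b also had the widest range over single libraries of the 7, at 1.70-fold.

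**Figure D1:**
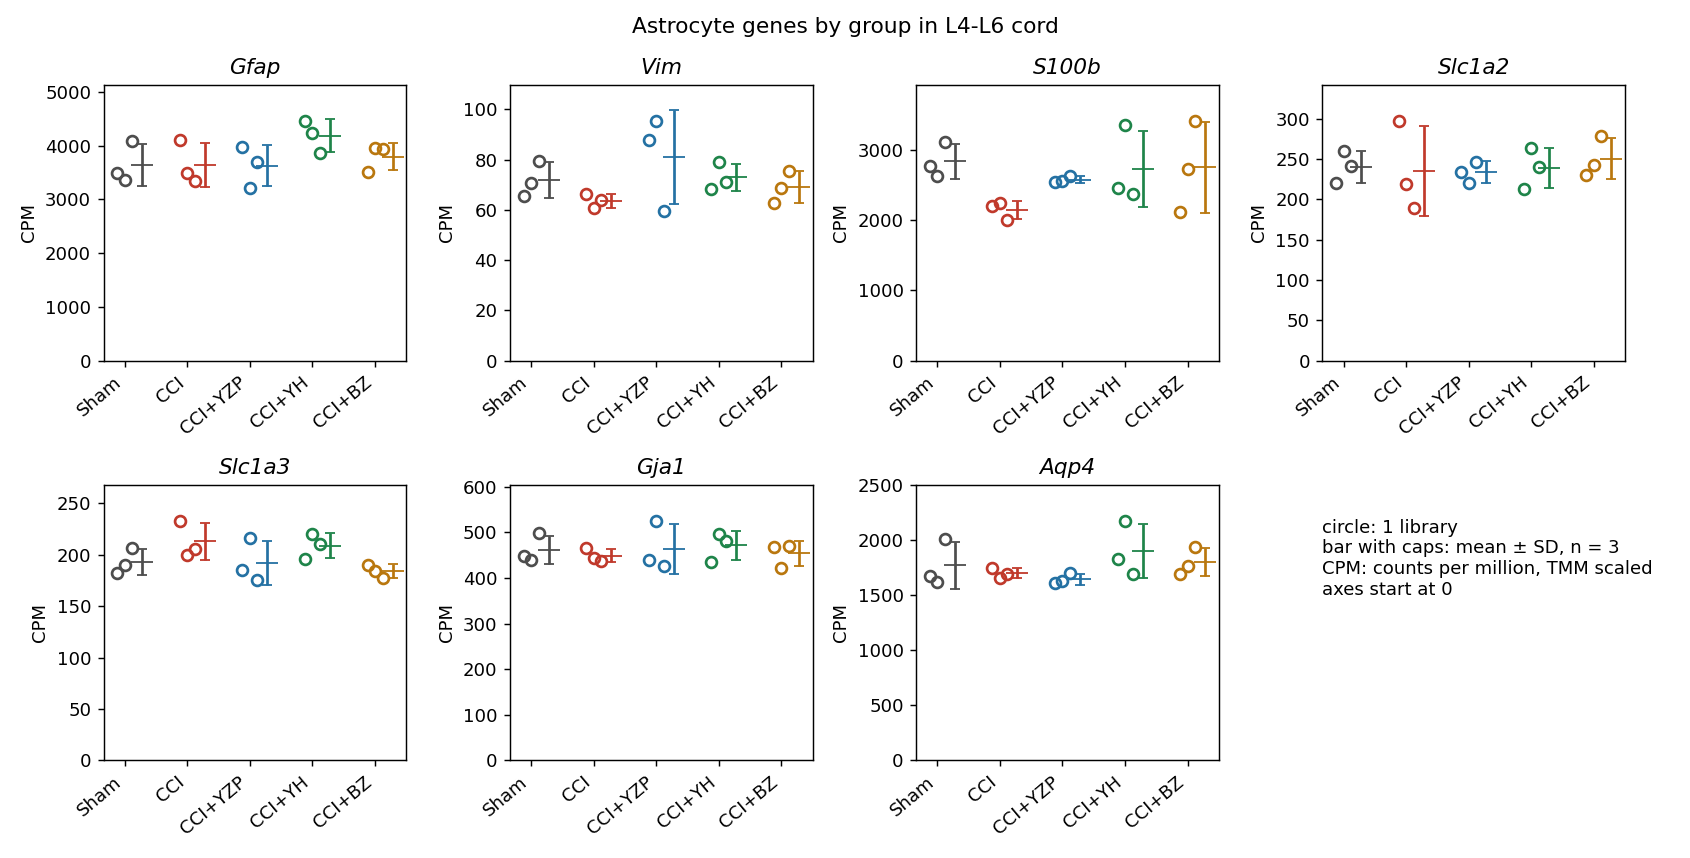
Level of each of the 7 genes in CPM (vertical axis, from 0) by group (horizontal axis). Circles are single libraries and capped bars the mean ± SD of 3. The CCI circles of S100b lie below all Sham circles, those of Gfap, Gja1 and Aqp4 overlap the range of Sham, and those of Slc1a2 lie on both sides of it.

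Gfap, the filament gene most used as a mark of reactive astrocytes, had means in CCI and in sham that differed by far less than their SD. Sham libraries held 3489.8, 3356 and 4084 CPM and CCI libraries 4105, 3488 and 3338 CPM, means of 3643 ± 387 and 3644 ± 407 CPM (SD, n = 3 each). The highest library of either group was about as high as that of the other, and the groups overlapped. The fitted fold of CCI over sham was 1.00, with a 95% interval of 0.858 to 1.17 (edgeR adjusted p = 0.999). The bounds depended on the model: with 1 surrogate variable the log2 fold change was 0.17 (95% interval -0.087 to 0.43, edgeR adjusted p = 0.879), and without 1 library it ran from -0.094 (without CCI replicate 1) to 0.090 (without sham replicate 3). The Gfap level in a smaller region, such as the dorsal horn, was not measured.

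With the drugs, CCI+YZP libraries had Gfap at 3972, 3219 and 3693 CPM, CCI+YH at 4459, 4237 and 3861 and CCI+BZ at 3507, 3951 and 3929. CCI+YH had the highest mean, 4186 ± 302 CPM, and 2 of its 3 libraries were above every library of the other groups. Against CCI the log2 fold change was 0.20 (95% interval -0.022 to 0.42, edgeR adjusted p = 0.914) in CCI+YH, -0.0062 in CCI+YZP and 0.059 in CCI+BZ. Against sham it was 0.20 (95% interval -0.021 to 0.42, edgeR adjusted p = 0.430) in CCI+YH. With 1 surrogate variable the CCI+YH difference from sham was 0.34 (95% interval 0.10 to 0.58, edgeR adjusted p = 0.403). It was 0.26 with sample quality weights (limma adjusted p = 0.0834) and 0.29 (95% interval 0.058 to 0.52, edgeR adjusted p = 0.314) without sham replicate 3. None of these passed the adjustment, and the group order, from CCI+YH over CCI+BZ, CCI and sham to CCI+YZP, is one of means whose libraries overlap between neighbours.

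The 250 bases before the RefSeq start of Gfap (GRCr8, chr10:88361662-88361911, minus strand, written 5′ to 3′) are shown because the gene is the usual readout of astrocyte reaction and had the fold nearest to 1 in CCI. Capitals in the sequences printed here mark a match, on either strand, to 1 of 6 short patterns. These were the TATA box as TATAAA, the GC box of Sp factors as GGGCGG and the AP-1 site of Fos and Jun as TGANTCA. The others were the site of STAT factors as TTCNNNGAA, the core bound by SOX factors as ACAAAG, and the NFI palindrome.
Gfap: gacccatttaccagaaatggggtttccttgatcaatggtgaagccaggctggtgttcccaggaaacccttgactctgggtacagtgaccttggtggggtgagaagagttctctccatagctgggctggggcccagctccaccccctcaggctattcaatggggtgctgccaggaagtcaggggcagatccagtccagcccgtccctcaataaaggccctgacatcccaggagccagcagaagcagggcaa
This window held none of the 6 letter patterns, which says only that these letters are not in it. Over all 33469 RefSeq windows of that length, 12.9% held TATAAA, 30.5% GGGCGG, 6.34% TGANTCA, 7.67% TTCNNNGAA, 16.3% ACAAAG and 0.0358% the NFI palindrome. No match overlapped another in the windows printed, and each match is a description of letters, not a site.

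Vim, which encodes the filament protein that joins GFAP in reactive astrocytes and is also made by vascular and ependymal cells, had a lower mean in CCI than in sham, within its error. Sham libraries held 65.4, 70.7 and 79.6 CPM and CCI libraries 66.3, 60.6 and 63.8 CPM, so that 2 of 3 CCI libraries lay below the lowest sham library. The log2 fold change was -0.18 (95% interval -0.47 to 0.12, edgeR adjusted p = 0.518). It was -0.24 without sham replicate 1, -0.10 without sham replicate 3, the highest sham library, and -0.10 with sample quality weights. A fit to only the sham and CCI libraries gave -0.17 (95% interval -0.35 to 0.014, edgeR adjusted p = 0.275). In CCI+YZP the libraries split, at 88.0, 95.4 and 59.7 CPM, with 2 above and 1 below every CCI library.

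The CCI+YZP difference of Vim from CCI moved by over 1.5 times with the library left out. Its log2 fold change was 0.35 (95% interval 0.055 to 0.64, edgeR adjusted p = 0.653), an unadjusted p of 0.0234. Without CCI+YZP replicate 3 it was 0.53 and without CCI+YZP replicate 2 it was 0.21, and neither was called (edgeR adjusted p 0.302 and 0.688). CCI+YH libraries held 68.5, 79.0 and 71.3 CPM of Vim, all above the CCI libraries, and CCI+BZ libraries 62.9, 68.9 and 75.6 CPM, which overlapped CCI.

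S100b was the gene of the 7 that differed most between sham and CCI. It encodes a small calcium-binding protein that astrocytes make and release, and in spinal cord it is also made by cells of the oligodendrocyte lineage. Sham libraries held 2765, 2634 and 3108 CPM and CCI libraries 2199.5, 2248 and 2006 CPM, means of 2836 ± 245 and 2151 ± 128 CPM (SD, n = 3 each). Every CCI library lay below every sham library. This was so for 1 of the 7 genes, in a comparison in which 26% of all genes had groups that did not overlap.

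The log2 fold change of S100b in CCI against sham was -0.40 (95% interval -0.72 to -0.073, edgeR adjusted p = 0.205), a fold of 0.759, and the unadjusted p was 0.0200. In this comparison 0 of 7 were called against 0.0182% of all genes, and 1 of 7, S100b, had an unadjusted p under 0.05 against 17.9%. The call depended on the model. It was made when the fit held the sham and CCI libraries alone (edgeR adjusted p = 0.0422, where 2.67% of all genes were called) and with sample quality weights in limma voom (adjusted p = 0.0305, where 12.6% were called). DESeq2 gave S100b an adjusted p of 0.0985. Its adjusted p over all alternatives ranged from 0.0305 to 0.996. The fold change was below 0 in all of these fits. With each library left out in turn the log2 fold change stayed between -0.45 and -0.33. With 1 surrogate variable in the edgeR fit it was -0.014 (SE 0.130). That fit called 0 of all genes in this comparison, and 1057 of all genes had an unadjusted edgeR p under 0.05, against 2958 without the variable.

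The level of S100b followed the first principal component, which was computed without the 7 genes. Over the 15 libraries Pearson's r was -0.79 (permutation p = 0.000640, adjusted over the 7 genes 0.00448) and Spearman's rho -0.82 (permutation p = 0.000420, adjusted 0.00294). Without the 2 libraries farthest from the median on that axis, CCI replicate 3 and CCI+BZ replicate 1, r was -0.69. Sham and CCI lie apart on the axis, so the relation was also taken on deviations from the group means, where r was -0.80 (permutation p within groups = 0.00764, adjusted 0.0535) and rho -0.71 (adjusted permutation p = 0.0976). The component holds differences between rats of a group as well as the difference of sham from CCI, and its part in the S100b difference was not tested beyond these values. None of the other 6 genes had an adjusted p under 0.05 in either form. For Gfap r was -0.19 over all libraries and -0.54 on deviations (adjusted permutation p 0.592 and 0.140). On deviations r was -0.51 for Aqp4 and -0.47 for Slc1a2 (adjusted permutation p 0.140 and 0.140), and whether S100b differed from these genes was not tested. Over all libraries, the highest r was that of Slc1a3, 0.53 (adjusted permutation p = 0.152).

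**Figure D2:**
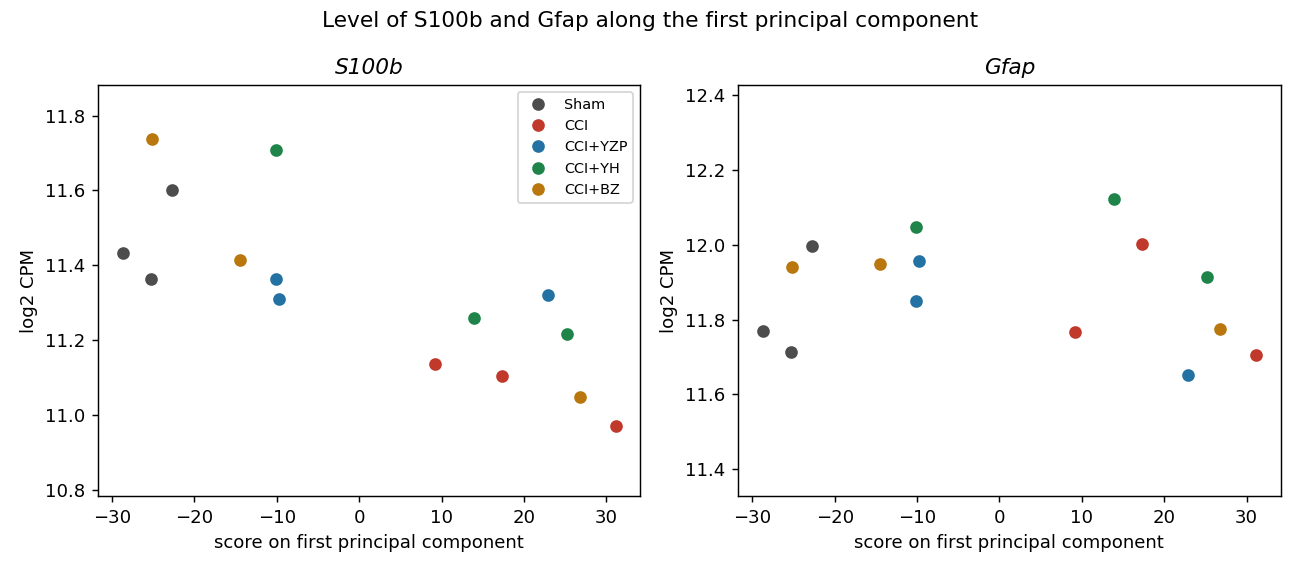
Level of S100b (left) and Gfap (right) as log2 CPM (vertical axes, each spanning the same range) against the score of each library on the first principal component of the other genes (horizontal axis), coloured by group. S100b falls from the sham side to the CCI side (r = -0.79), and also within CCI, CCI+YH and CCI+BZ. It does not fall within sham, where replicate 3 has both the highest score and the highest S100b, and CCI+YZP is nearly flat. Gfap has r = -0.19 over all libraries and -0.54 on deviations from the group means.

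In the drug groups the means of S100b lay between CCI and sham. S100b stood at 2539, 2555 and 2636 CPM in the CCI+YZP libraries, at 2451, 3348 and 2378 in CCI+YH and at 2116, 2726 and 3414 in CCI+BZ. All libraries of CCI+YZP and CCI+YH were above every CCI library, while CCI+BZ replicate 1 was inside the CCI range. CCI+YZP was tight (SD 2.03% of the mean), and CCI+YH and CCI+BZ were wide (19.8% and 23.6%).

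Against CCI, the log2 fold change of S100b was 0.26 (95% interval -0.065 to 0.59, edgeR adjusted p = 0.776) in CCI+YZP, 0.34 (95% interval 0.016 to 0.67, edgeR adjusted p = 0.874) in CCI+YH and 0.36 (95% interval 0.030 to 0.68, edgeR adjusted p = 0.750) in CCI+BZ. None was called. With 1 library left out, the log2 fold change ran from 0.21 to 0.29 in CCI+YZP. It ran from 0.17 to 0.43 in CCI+YH and from 0.17 to 0.51 in CCI+BZ. The low ends were 0.17 without CCI+YH replicate 2 and 0.17 without CCI+BZ replicate 3. These 2 libraries scored -10.1 and -25.1 on the first component, the lowest score of their group. With the surrogate variable the 3 log2 fold changes were 0.11, 0.26 and 0.14 in that order. These 3 comparisons and that of CCI with sham share the CCI libraries.

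The 250 bases before the RefSeq start of S100b (GRCr8, chr20:12381082-12381331, minus strand) are given beside those of Gfap, as the genes with the fold farthest from 1 and nearest to 1 in CCI against sham.
S100b: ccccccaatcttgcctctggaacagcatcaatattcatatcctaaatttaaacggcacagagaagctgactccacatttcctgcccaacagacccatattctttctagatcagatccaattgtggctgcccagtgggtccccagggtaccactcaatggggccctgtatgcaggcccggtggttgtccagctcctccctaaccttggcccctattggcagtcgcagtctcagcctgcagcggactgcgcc
This window also held none of the 6 letter patterns. Its share of G and C was 54.8%, against 57.6% for Gfap and a median of 51.2% over all windows.

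Neither of the 2 glutamate transporter genes was called after ligation. Slc1a2, whose product GLT-1 takes up most glutamate in the adult central nervous system, held 219.8, 260.0 and 242 CPM in sham and 297, 219 and 189 CPM in CCI. The CCI libraries included both the highest and the lowest of all 15, an SD of 23.8% of the mean against 8.37% in sham. The log2 fold change was -0.031 (95% interval -0.32 to 0.26, edgeR adjusted p = 0.927), so that a fold between 0.798 and 1.20 is within the interval.

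In the drug groups Slc1a2 ran at 234, 220.0 and 247 CPM with YZP, 213, 264 and 241 with YH and 230.5, 243 and 279 with BZ, all within the range of CCI. Its adjusted p in edgeR was 0.917 or higher against CCI, and 0.937 or higher against sham. The group order by mean, from CCI+BZ over sham, CCI+YH and CCI to CCI+YZP, spanned 1.07-fold, and neighbours in it did not differ beyond their spread.

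Slc1a3, whose product GLAST is the transporter of cerebellar and radial glia and is shared by cord astrocytes, had its highest mean in CCI. Sham libraries held 182, 189.8 and 206 CPM and CCI libraries 233, 199.6 and 206 CPM. The top sham library fell within the CCI range. The log2 fold change was 0.14 (95% interval -0.033 to 0.32, edgeR adjusted p = 0.375). It was 0.073 without CCI replicate 1, 0.20 without sham replicate 3 and 0.053 with 1 surrogate variable. With sample quality weights it was 0.18 (95% interval 0.039 to 0.33, limma adjusted p = 0.0843), which did not pass the adjustment.

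CCI+BZ had the lowest mean of Slc1a3, and its libraries, at 190.3, 184 and 177 CPM, all lay below every CCI library. The log2 fold change against CCI was -0.21 (95% interval -0.39 to -0.034, edgeR adjusted p = 0.710), an unadjusted p of 0.0230 that did not pass the adjustment. With 1 library left out it ran from -0.25 to -0.14 (edgeR adjusted p 0.333 or higher), the last without CCI replicate 1, the highest library. Against sham the CCI+BZ difference was -0.067 (95% interval -0.24 to 0.11, edgeR adjusted p = 0.877). Without 1 library it ran from -0.11 (without sham replicate 1) to -0.016 (without sham replicate 3), and was -0.042 without CCI+BZ replicate 3. It was -0.11 with 1 surrogate variable and -0.021 with sample quality weights. CCI+YZP libraries held 185, 216 and 175 CPM and CCI+YH libraries 196, 220.0 and 209.9 CPM, and both groups overlapped CCI.

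Gja1, the gene of the main gap junction protein of astrocytes, varied least between group means. Sham libraries held 448, 439 and 497 CPM and CCI libraries 466, 443 and 438 CPM, with a fold of 0.973 (95% interval 0.861 to 1.10, edgeR adjusted p = 0.836), which turned above 1 without sham replicate 3. All CCI libraries except 1 lay inside the sham range. CCI+YZP held 440.1, 525 and 425 CPM, CCI+YH 436, 497 and 481 CPM and CCI+BZ 469, 422 and 469.8 CPM. CCI+YZP replicate 2 was the highest of the 15, as it was for Vim.

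Aqp4, the gene of the water channel that lines astrocyte endfeet on vessels, also overlapped between sham and CCI. Sham libraries held 1679, 1626 and 2014 CPM and CCI libraries 1749, 1663 and 1693 CPM, with a fold of 0.960 (95% interval 0.834 to 1.10, edgeR adjusted p = 0.783), which turned above 1 without sham replicate 3 and with 1 surrogate variable. CCI had the smallest SD of the 5 groups for Aqp4, and its libraries lay within the range of sham. Aqp4 was at 1610.0, 1628 and 1702 CPM with YZP, 1830.3, 2179.7 and 1698 with YH and 1691, 1772 and 1941 with BZ. CCI+YH replicate 2 was the highest library, and the log2 fold change of CCI+YH against CCI was 0.16 (95% interval -0.042 to 0.36, edgeR adjusted p = 0.927). Without that library it was 0.052, the lowest value with 1 library left out, and the highest was 0.24 (edgeR adjusted p 0.711 or higher).

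**Figure D3:**
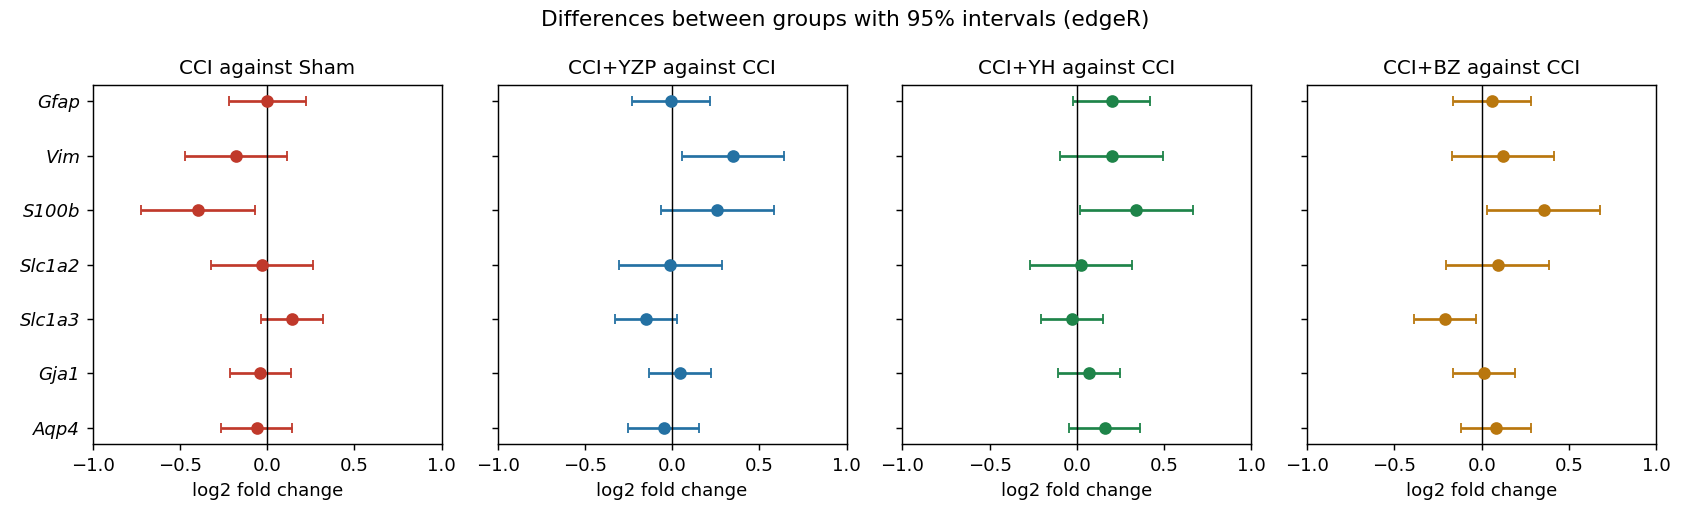
Log2 fold change (horizontal axis, points) with its 95% interval (bars) for each of the 7 genes (vertical axis), in CCI against sham and in each drug group against CCI, from the edgeR fit. Of these 28 intervals, those of S100b in CCI, CCI+YH and CCI+BZ, of Vim in CCI+YZP and of Slc1a3 in CCI+BZ leave out 0 before adjustment, and none passed it.

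Signs are given here as counts, most of them for fold changes within their error. In CCI against sham 2 were higher and 5 lower, with a median log2 fold change of -0.040 beside -0.0015 over all genes. In CCI+YZP against CCI 3 were higher and 4 lower (median -0.0062, all genes 0.0019). In CCI+YH against CCI 6 were higher and 1 lower (median 0.16, all genes -0.0019). In CCI+BZ against CCI the split was 6 to 1 (median 0.082, all genes -0.0026). Of all genes, 49.4% were higher in CCI+YH than in CCI and 49.3% in CCI+BZ.

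Against CCI, edgeR called 0 of 7 in CCI+YZP, CCI+YH and CCI+BZ, beside 0.00605%, 0% and 0% of all genes. At an unadjusted p under 0.05 there were 1 (Vim), 1 (S100b) and 2 (S100b and Slc1a3) of 7, beside 6.94%, 5.59% and 6.63%. Libraries of the groups did not overlap for 1 of 7 in CCI+YZP (S100b), 2 of 7 in CCI+YH (Vim and S100b) and 1 of 7 in CCI+BZ (Slc1a3), beside 14.5%, 10.9% and 11.7% of all genes. DESeq2 and limma voom, with or without sample quality weights, called 0 of 7 in each of them. In the same order DESeq2 called 0.109%, 0.0787% and 0.133% of all genes. Plain limma voom called 0.00605%, 0% and 0%, and with sample quality weights 0.0121%, 0% and 0%. The doses of the 3 drugs differed, so their values are given side by side and are not compared with each other.

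Against sham, edgeR called 0 of 7 in CCI+YZP, CCI+YH and CCI+BZ, beside 0.0666%, 0.0424% and 0% of all genes, and 0 of 7 had an unadjusted p under 0.05, beside 11%, 13.1% and 7.83%. Libraries did not overlap for 0 of 7 in any of them, beside 17.6%, 18.2% and 11.1% of all genes. The lowest adjusted p was 0.430, for Gfap in CCI+YH. With the 4 ligated groups pooled, 12 libraries against 3, 0 of 7 were called beside 0.188%, and 0 of 7 had an unadjusted p under 0.05 beside 16.1%, and 0 of 7 did not overlap beside 2.5%. DESeq2 and limma voom, with or without sample quality weights, called 0 of 7 in these 4 comparisons too. Of all genes, DESeq2 called from 0.139% in CCI+BZ to 2.85% with the 4 ligated groups pooled. Plain limma voom called from 0% in CCI+BZ to 0.2% with the groups pooled. With sample quality weights it called 3.35%, 5.23% and 0.0121% in CCI+YZP, CCI+YH and CCI+BZ, and 15.2% with the groups pooled. In the pooled contrast Gfap had a log2 fold change of 0.063 (95% interval -0.11 to 0.24, edgeR adjusted p = 0.743) and S100b of -0.16 (95% interval -0.41 to 0.10, edgeR adjusted p = 0.529). Gfap ran from 0.0075 without sham replicate 2 to 0.15 without sham replicate 3, with 0.033 without sham replicate 1 and 0.040 without CCI replicate 1. It was 0.19 with 1 surrogate variable and 0.12 with sample quality weights. S100b was -0.088 without sham replicate 3 and turned to 0.11 with 1 surrogate variable.

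Correlations over single libraries were mostly positive among the 7 genes, and no pair passed the adjustment. Of the 21 pairs, 19 had a positive Pearson's r of log2 CPM over the 15 libraries, with a median of 0.29. On deviations from the group means 20 were positive, with a median of 0.37. Among the 10004 other genes with a mean of at least 10 CPM, 50.1% of all pairs were positive, and 50.2% on deviations. The 7 genes are no random draw, and the counts were not tested against these shares. After adjustment over the 21 pairs no permutation p was under 0.05 in either form. All values of a library share its scaling and its piece of tissue.

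The highest values within groups joined 2 pairs. Slc1a3 and Gja1 had r = 0.83 and rho = 0.75 on deviations (adjusted permutation p 0.0534 and 0.107), and r was 0.75 without CCI+YZP replicate 2 and CCI replicate 1. S100b and Aqp4 had r = 0.82 and rho = 0.84 (adjusted permutation p 0.0533 and 0.107), and r was 0.88 without CCI+BZ replicates 3 and 1. The unadjusted permutation p was 0.00509 for the first pair and 0.00254 for the second. Both transporters together had r = 0.32 on deviations and the 2 filament genes r = 0.12 (adjusted permutation p 0.522 and 0.831). Without the 2 farthest libraries these were 0.0082, without CCI replicates 1 and 3, and 0.35, without CCI+YZP replicate 2 and CCI replicate 1.

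**Figure D4:**
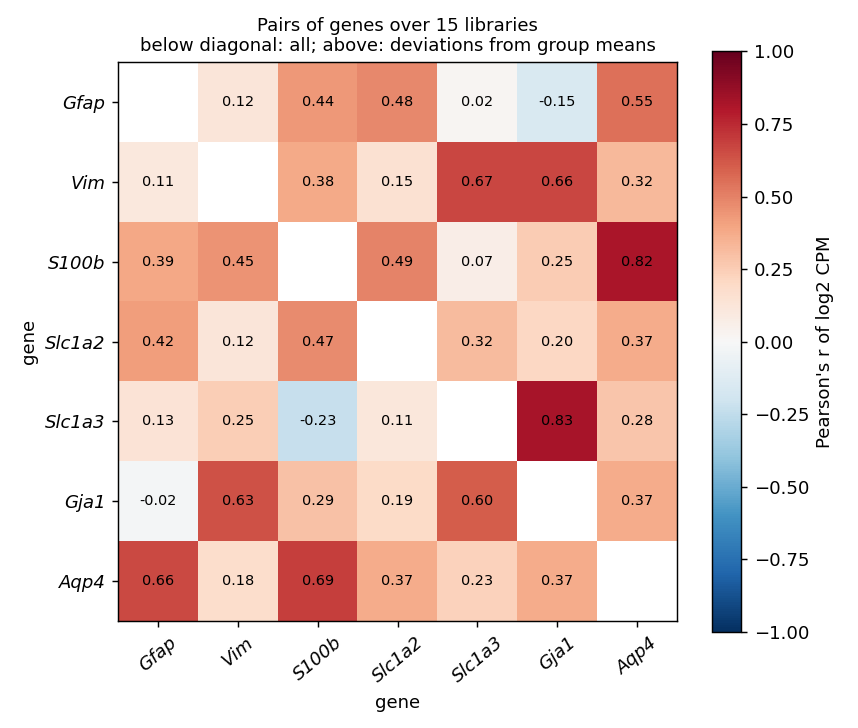
Pearson's r of log2 CPM for each pair of the 7 genes (rows and columns) over 15 libraries, below the diagonal as measured and above it on deviations from group means, on a colour scale from -1 to 1. Slc1a3 with Gja1 (0.83) and S100b with Aqp4 (0.82) are the darkest cells above it, and Gfap with Vim (0.12) is pale.

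The windows of 250 bases before the RefSeq starts of Slc1a3 (GRCr8, chr2:59557809-59558058, minus strand, the outermost of 3 listed starts) and Gja1 (GRCr8, chr20:36302314-36302563, plus strand) are shown as those of the pair with the highest r within groups.
Slc1a3: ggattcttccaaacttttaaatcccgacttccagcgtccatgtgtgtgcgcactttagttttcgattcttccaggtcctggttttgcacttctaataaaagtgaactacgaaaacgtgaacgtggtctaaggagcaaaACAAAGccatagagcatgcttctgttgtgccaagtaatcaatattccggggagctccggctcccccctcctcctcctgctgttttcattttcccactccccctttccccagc
Gja1: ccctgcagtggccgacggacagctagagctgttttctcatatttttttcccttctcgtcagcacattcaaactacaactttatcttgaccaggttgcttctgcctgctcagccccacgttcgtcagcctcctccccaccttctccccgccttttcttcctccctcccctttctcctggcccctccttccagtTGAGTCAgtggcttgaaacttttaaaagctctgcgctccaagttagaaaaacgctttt
The capitals are ACAAAG in Slc1a3 and TGAGTCA, a match to TGANTCA, in Gja1. The pair shared none of the 6 patterns. A RefSeq window was found for all 7 genes by symbol, 11 windows in all.

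The likeness of the 7 genes to the rest of the transcriptome differed. Among 10004 other genes with a mean of at least 10 CPM, 296 had r over 0.8 with S100b across the 15 libraries and 143 had r below -0.8. For Gfap the counts were 4 and 0, and for Slc1a2 3 and 1. They were 1 and 0 for Vim, 10 and 4 for Slc1a3, 6 and 31 for Gja1 and 9 and 24 for Aqp4. The gene most like Gfap was ENSRNOG00000007946 (r = 0.83, 167 to 243 CPM), and the gene most like Slc1a2 was ENSRNOG00000037765 (r = 0.88, 17.5 to 22.1 CPM). Each is the highest of 10004 values over 15 libraries that share depth and tissue, given as a description without a test.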

How the data were processed

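The authors deposited raw counts per gene, whole numbers in 1 table per library. The submitters' processing notes name rn4 as build and DESeq2 1.16.1. What aligner, counter, annotation and strand setting were used is unknown from the sources used here. Reads where genes overlap, on either strand, may thus count for the wrong one. Libraries were made with a NEBNext Ultra RNA kit from Trizol RNA, per the labels' protocols. Genes were kept with filterByExpr (minimum count 10), libraries scaled by TMM, and a quasi-likelihood negative binomial model with 1 coefficient per group fitted to all 15 libraries in edgeR 4.0.16 (R 4.3.3), with 10 residual degrees of freedom and a common biological coefficient of variation of 15.4%. A log2 fold change divided by the root of its F gave the standard error. The fit was also run on simulated counts, whose outcome is not given and is not used as support here. Alternatives were DESeq2 1.42.0, limma voom 3.58.1 plain or with quality weights per sample, upper-quartile and RLE scaling, filters of none or of a mean count from 50 up, fits to only the groups compared, a threshold of 0.1 on the adjusted p, the replicate number as a block, 1 surrogate variable from sva 3.50.0, and each library left out. Correlations used log2 CPM (prior count 2) and 100000 permutations of libraries, two-sided, within groups for deviations. Same-group libraries differed by a chi-square per gene of 7.06 to 27.0, so none was counted as a repeat. The reference table (GRCr8) gave an Ensembl identifier for 0 of 47357 genes. The symbols of the 7 genes come with the rule that chose them. Genes named in the text are these 7 and, by rule, the gene most like Gfap and the one most like Slc1a2. The members and lists were chosen with earlier results of these data known. Promoter windows are from RefSeq (GRCr8) and were matched by symbol.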

Additional observations from a re-analysis of the deposited data

How the results depend on the processing

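The number of the 7 genes called was 0 in all 9 comparisons and stayed 0 under each alternative, with 2 exceptions in CCI against sham, where S100b was called (1 of 7) with sample quality weights and with only the groups compared. With each library left out in turn it was 0 to 0 in every comparison. With the replicate block it was 0 in all 9 comparisons. Same-numbered libraries of different groups did not deviate together (r -0.17 to 0.14 over 30 pairs), so the number is not taken as a pairing. The block took the genes called over all 16522 from 15 to 5 for a difference anywhere, and DESeq2 took them from 3 to 487 in CCI against sham. The relation of S100b with the first component had an adjusted p under 0.05 over all libraries (1 of 7 genes) and not on deviations (0 of 7, r = -0.80).

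Some log2 fold changes changed sign, none of them called, among them that of S100b for all 4 ligated groups against sham, the farthest from 0 there. In limma voom the values were, in CCI against Sham Gfap -0.00090, in CCI+YZP against CCI Slc1a2 0.014. With upper-quartile scaling the values were, in CCI against Sham Gfap -0.013, in CCI+YZP against Sham Gja1 -0.00050. With the replicate block the values were, in CCI against Sham Gfap -0.0016. With sample quality weights the values were, in CCI against Sham Slc1a2 0.0081, in CCI+YZP against CCI Gfap 0.042, Slc1a2 0.048, Gja1 -0.0049, in CCI+YH against CCI Slc1a2 -0.0048, in CCI+BZ against CCI Gja1 -0.022, in CCI+YZP against Sham Gfap 0.068, Slc1a2 0.056, Gja1 -0.021, in CCI+YH against Sham Slc1a2 0.0033, in CCI+BZ against Sham Vim 0.024, in all 4 ligated groups against Sham Vim 0.035, Slc1a2 0.047, Aqp4 0.025. With 1 surrogate variable the values were, in CCI against Sham Slc1a2 0.17, Aqp4 0.088, in CCI+YH against CCI Slc1a2 -0.015, in CCI+BZ against CCI Gfap -0.031, Slc1a2 -0.013, in CCI+YZP against Sham Gfap 0.091, S100b 0.10, Slc1a2 0.078, Gja1 -0.044, in CCI+YH against Sham S100b 0.24, Slc1a2 0.15, Gja1 -0.035, in CCI+BZ against Sham S100b 0.12, in all 4 ligated groups against Sham S100b 0.11, Slc1a2 0.14, Slc1a3 -0.019, Aqp4 0.094. On deviations, r of S100b with Slc1a3 was 0.070 in place of -0.23, and r of Vim with the first component 0.0063 in place of -0.14. With 1 library left out, 30 log2 fold changes crossed 0, with these ranges. In CCI against Sham they were Gfap -0.094 to 0.090, Slc1a2 -0.24 to 0.10, Gja1 -0.074 to 0.018, Aqp4 -0.12 to 0.042. In CCI+YZP against CCI they were Gfap -0.076 to 0.088, Slc1a2 -0.15 to 0.20, Gja1 -0.054 to 0.10. In CCI+YH against CCI they were Slc1a2 -0.11 to 0.23, Slc1a3 -0.073 to 0.042. In CCI+BZ against CCI they were Gfap -0.00047 to 0.15, Slc1a2 -0.043 to 0.30, Gja1 -0.011 to 0.064. In CCI+YZP against Sham they were Gfap -0.076 to 0.084, Slc1a2 -0.10 to 0.019, Slc1a3 -0.10 to 0.058, Gja1 -0.093 to 0.065. In CCI+YH against Sham they were Vim -0.044 to 0.10, S100b -0.23 to 0.033, Slc1a2 -0.084 to 0.071, Gja1 -0.0095 to 0.088, Aqp4 -0.0072 to 0.20. In CCI+BZ against Sham they were Vim -0.13 to 0.023, S100b -0.23 to 0.11, Slc1a2 -0.023 to 0.12, Gja1 -0.059 to 0.033, Aqp4 -0.036 to 0.12. In all 4 ligated groups against Sham they were Vim -0.075 to 0.068, Slc1a2 -0.065 to 0.055, Gja1 -0.041 to 0.051, Aqp4 -0.069 to 0.091. The surrogate variable removes variation shared by many genes. The cause of the changes of sign was not tested for any of these settings.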
